A study of Macaca fuscata with 18 samples.

Results

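The genes described here are 9 genes of the astrocyte endfoot, chosen by symbol from the table of read counts: the water channels AQP4, AQP1 and AQP9, the potassium channel KCNJ10, the membrane partners MLC1 and HEPACAM, the gap junction genes GJA1 and GJB6, and dystroglycan, DAG1. All 9 were among the 19747 symbols of the table, and 8 of them had enough reads to be tested, AQP9 being the exception. Where a symbol had several transcript rows, the row with the highest mean level was used. The 9 symbols had 15 rows, and the other rows of AQP4, DAG1, GJB6 and MLC1 held 97.66 to 99.67% of the reads of the row used, so they report nearly the same reads.

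Astrocytes wrap blood vessels, the pial surface and, at the ventricle, the tissue under the ependyma with processes called endfeet. There AQP4 is anchored through the dystrophin and dystroglycan complex, KCNJ10 (Kir4.1) takes up potassium released by active neurons, and connexins join neighbouring astrocytes into a network that spreads ions and metabolites. MLC1 and HEPACAM form a complex at these contacts that takes part in volume regulation, and mutations in either gene cause a leukoencephalopathy with brain swelling and cysts. Endfeet swell after ischemia, and AQP4 is the best known route of water into the swollen astrocyte.

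RNA came from the anterior subventricular zone (SVZa), the neurogenic tissue along the anterior horn of the lateral ventricle, of adult Japanese macaques (Macaca fuscata) aged 4 to 6 years. In 3 monkeys (MK503, MK507 and MK506) whole-brain ischemia was produced by clipping arteries for 18 min, and 3 monkeys (MK504, MK501 and MK508) had the sham operation without clipping. All were killed 7 days after surgery, and 3 adjacent fragments (A1, A2 and A3), dissected on the striatal side of the right ventricle, gave 1 library each, 9 per group. The fragments are mixed tissue of ependyma, glia, vessels and striatal neurons, so a difference in the number of cells of a type and a difference in RNA per cell cannot be told apart.

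Summed over all transcript rows, libraries held 18076257 to 74551396 counts. Rows of a gene can share reads, so a read can be counted more than once in these totals. The 3 libraries of a monkey were summed before the groups were compared (60453769 to 190678361 such counts per monkey), since fragments of 1 animal are not replicates. Levels are CPM, reads scaled to a common library size by TMM, which do not correct for transcript length, so levels of different genes are not compared. Pairs follow the order of columns in a table of the study. MK503 was set against MK504 (pair 1), MK507 against MK501 (pair 2) and MK506 against MK508 (pair 3). Astrocyte markers summed to 15510 to 18340 CPM in ischemic and 11260 to 14890 CPM in sham monkeys, and ependymal markers to 731 to 1467 and 719.4 to 1356 CPM. Most of the difference in the astrocyte sum lay in GFAP, which averaged 5834 CPM in ischemic and 2594 CPM in sham monkeys. Of the 14 astrocyte markers 10 had a positive and 4 a negative log2 fold change. The 6 libraries of pair 1 gave 1.09 to 1.27% of their counts over all rows to the nuclear RNA MALAT1, against 0.036 to 0.235% in the other 12. In 3 libraries of pair 1 (A2 of MK503, A2 and A3 of MK504) POLE2 reached 90870 to 102900 CPM, and sham A2 of MK501 held 71340 CPM of the choroid plexus gene TTR.

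In ischemic monkeys 7 of the 8 tested endfoot genes had a higher level than in sham monkeys. A positive log2 fold change was found in 8314 of all 17522 tested genes. The log2 fold changes of the 8 had a median of 0.56, while that of all tested genes was -0.019. None of the 8 passed the edgeR quasi-likelihood test after adjustment over all genes, in which 0% of all tested genes passed (smallest adjusted p 0.2055). At an unadjusted p under 0.05, 5 were higher (AQP1, KCNJ10, MLC1, HEPACAM and GJA1), where 8.38% of all tested genes were, and 0 were lower, where 8.04% were. DESeq2 called 4 of them higher (AQP1, KCNJ10, MLC1 and HEPACAM), with 3.85% of its tested genes called higher. In 6 genes the ischemic monkey exceeded its sham partner in all 3 pairs, as in 20.4% of all genes. In 3 genes (KCNJ10, GJA1 and DAG1) every ischemic monkey was above every sham monkey, as in 2.44% of all genes. GJA1, KCNJ10 and MLC1 are in a list of upregulated genes that the study chose on these samples, so their direction is not independent evidence.

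**Figure D1:**
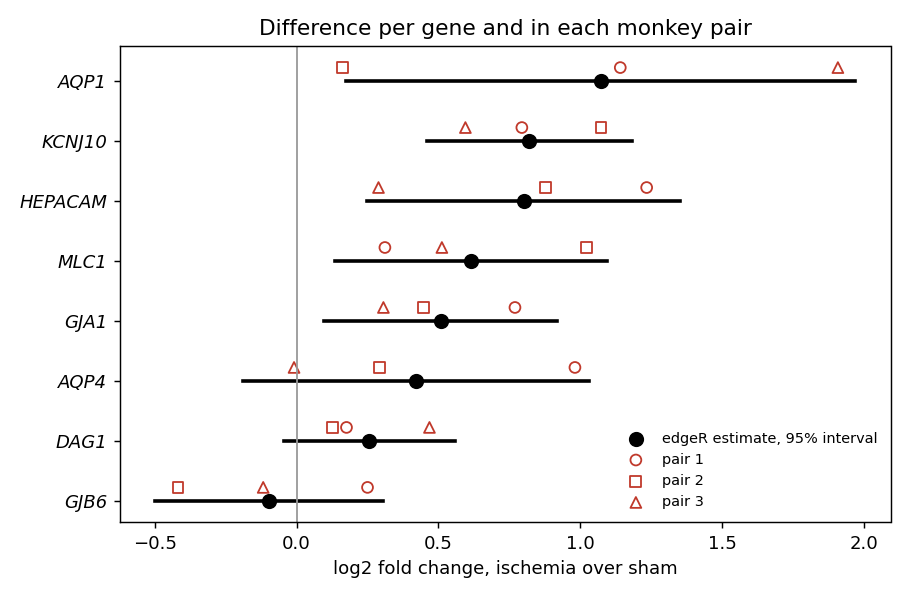
Log2 fold change of ischemia over sham for the 8 tested genes (x axis; filled circle, edgeR estimate; line, 95% interval) and the log2 ratio within each of the 3 monkey pairs (open symbols). The estimate was positive for all genes shown but GJB6 (-0.096), and the intervals of AQP4, DAG1 and GJB6 included 0.

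AQP4, the main water channel of the endfoot, stood at 1708 CPM in ischemic MK503, 732.6 CPM in MK507 and 798.8 CPM in MK506, against 865.1 CPM in sham MK504, 598.3 CPM in MK501 and 803.7 CPM in MK508. Only MK503 was above every sham monkey, and the other ischemic monkeys lay within the sham range. The means were 1080 ± 544.9 CPM in ischemia and 755.7 ± 139.8 CPM in sham (SD, n = 3 each), with a log2 fold change of 0.42 (95% interval -0.19 to 1.03, edgeR adjusted p 0.4141). Within the pairs the log2 ratio was 0.98 in pair 1, 0.29 in pair 2 and -0.0089 in pair 3. Without MK503, which takes pair 1 out of the estimate, the log2 fold change was 0.14. The pair accounted for 43.9% of the variance of AQP4 over the libraries and the condition for 7.63%, near the means over all genes of 52.3% and 6.51%.

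AQP1, a water channel best known in the brain from the choroid plexus epithelium, was at 150.2 CPM in ischemic MK503, 223.7 CPM in MK507 and 234.2 CPM in MK506, against 68.08 CPM in sham MK504, 199.9 CPM in MK501 and 62.39 CPM in MK508. The ischemic monkeys were alike, and sham MK501 was apart from the other sham monkeys and within the ischemic range. The means were 202.7 ± 45.77 CPM in ischemia and 110.1 ± 77.8 CPM in sham (SD, n = 3 each), with the highest estimate of the 8 genes in this fit, a log2 fold change of 1.07 (95% interval 0.17 to 1.97, edgeR adjusted p 0.2613, DESeq2 adjusted p 0.01771). It ran from 0.652 without MK508 to 1.548 without MK501, where leaving out a monkey also takes its partner out of the estimate.

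The high level of MK501 came from its A2 fragment, with 424.2 CPM of AQP1, while the other 8 sham libraries ran up to 127 CPM. That library also held 71340 CPM of TTR, and its 10 choroid plexus markers summed to 74650 CPM. Over monkeys these markers summed to 83.11 to 161.9 CPM in ischemia and 535.5 to 22290 CPM in sham, and by the unadjusted threshold 0 of the 10 passed upward and 7 downward. The values of AQP1 and of the choroid plexus markers differed in opposite directions between the groups. After subtraction of each monkey's mean, r of AQP1 with TTR over the 18 libraries was 0.714, the highest of the 8 genes. MLC1 (0.655) and GJA1 (0.649) came close to it, and r of AQP1 with GFAP was 0.897. The part of choroid plexus RNA in the AQP1 levels was not tested. The 2 highest ischemic AQP1 libraries, A1 of MK506 (414.5 CPM) and A1 of MK507 (364.5 CPM), held 17.59 and 148.3 CPM of TTR. Without sham A2 of MK501, a setting chosen after the data were seen, the log2 fold change of AQP1 was 1.34 (edgeR adjusted p 0.1351).

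AQP9, a channel for water, glycerol and lactate, was barely detected. Its reads numbered 25 in ischemic MK503, 6 in MK507 and 6 in MK506, against 30 in sham MK504, 5 in MK501 and 1 in MK508. Of its 73 reads, 55 were in the 6 libraries of pair 1, and 5 of the 18 libraries had none, which allows up to 3 reads in each by counting error. A difference between ischemia and sham was not detectable at this depth.

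KCNJ10, the inward rectifier potassium channel of glia, had 236.5 CPM in ischemic MK503, 169.9 CPM in MK507 and 241.4 CPM in MK506, against 136.4 CPM in sham MK504, 80.72 CPM in MK501 and 159.8 CPM in MK508. The groups did not overlap, with the lowest ischemic monkey just above the highest sham monkey. The means were 215.9 ± 39.95 CPM in ischemia and 125.6 ± 40.62 CPM in sham (SD, n = 3 each). The log2 fold change was 0.82 (SE 0.14, 95% interval 0.46 to 1.18, edgeR adjusted p 0.2055, DESeq2 adjusted p 0.0001876), and by p KCNJ10 ranked 167 of 17522 genes. The pairs gave 0.79, 1.07 and 0.60. KCNJ10 was past the unadjusted threshold under every alternative setting tried but the fit without the pairs.

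**Figure D2:**
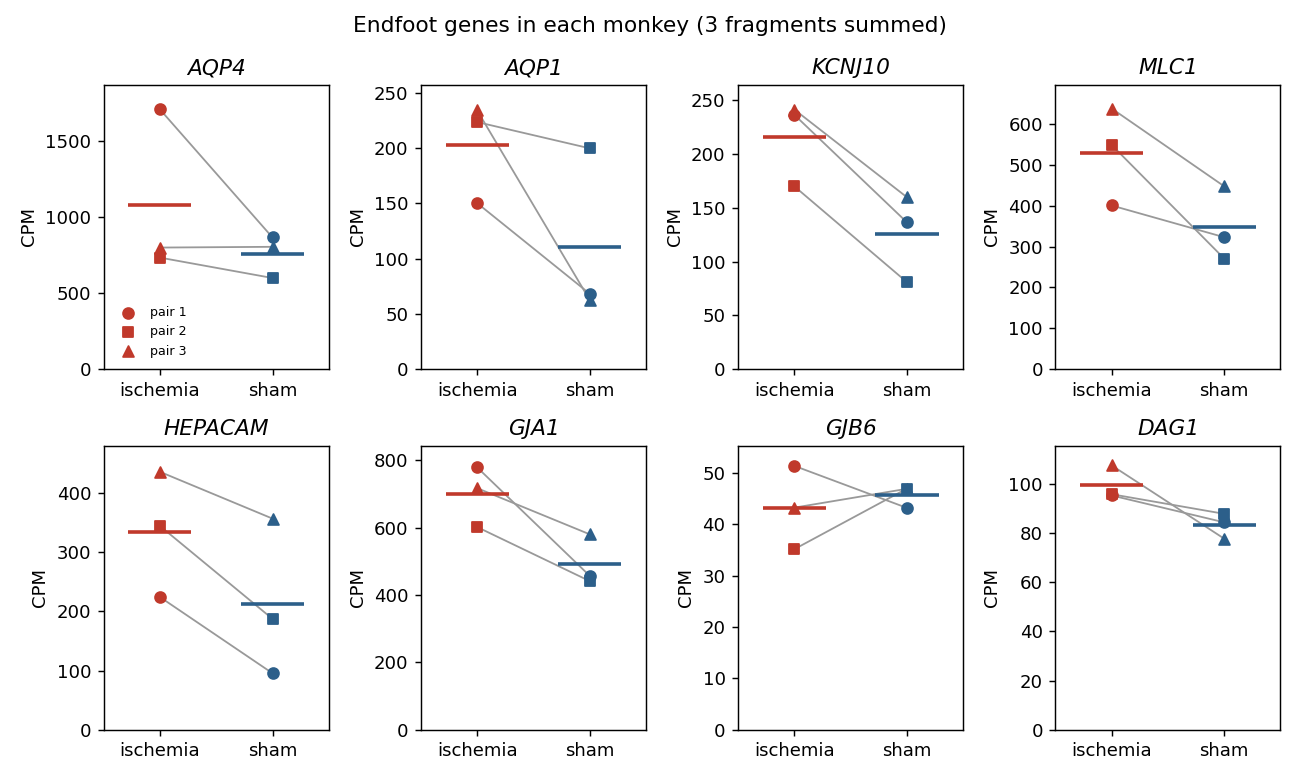
CPM (y axis, from 0) of the 8 tested genes in each monkey, with the 3 fragments summed; red, ischemia, blue, sham, symbols and grey lines mark the pairs, and bars are group means. The ischemic monkeys were all above the sham monkeys for KCNJ10, GJA1 and DAG1 alone.

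MLC1, the membrane protein of the endfoot that is mutated in megalencephalic leukoencephalopathy, had 400.7 CPM in ischemic MK503, 549 CPM in MK507 and 638.5 CPM in MK506, against 322.9 CPM in sham MK504, 270.4 CPM in MK501 and 447.7 CPM in MK508. Each ischemic monkey was above its partner, and only MK503 was within the sham range. The means were 529.4 ± 120.1 CPM in ischemia and 347 ± 91.04 CPM in sham (SD, n = 3 each), a log2 fold change of 0.61 (95% interval 0.13 to 1.10, edgeR adjusted p 0.2449, DESeq2 adjusted p 0.03318).

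HEPACAM, the adhesion protein GlialCAM that brings MLC1 to cell contacts, had 224.2 CPM in ischemic MK503, 344.4 CPM in MK507 and 436 CPM in MK506, against 95.36 CPM in sham MK504, 187.3 CPM in MK501 and 356.9 CPM in MK508. Pair 1 was low and pair 3 high in both groups, and the ischemic monkey was the higher in each pair, by 1.23, 0.88 and 0.29 on the log2 scale. The means were 334.9 ± 106.2 CPM in ischemia and 213.2 ± 132.7 CPM in sham (SD, n = 3 each), a log2 fold change of 0.80 (95% interval 0.25 to 1.35, edgeR adjusted p 0.2257, DESeq2 adjusted p 0.01024). HEPN1, a gene that in human overlaps HEPACAM, had 101.9, 233 and 282.9 CPM in ischemic MK503, MK507 and MK506, against 43.37, 157.3 and 268.7 CPM in sham MK504, MK501 and MK508. The study counted reads with bedtools at its default parameters and does not mention strand. Reads of the overlap cannot be told apart, and HEPACAM is uncertain to that extent. HEPN1 reads were 43.8 to 46.9% of those of HEPACAM in the libraries of pair 1 and 60.4 to 90.7% in the other 12 libraries.

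GJA1, the gene of connexin 43, which forms most astrocyte gap junctions, had 779 CPM in ischemic MK503, 601.8 CPM in MK507 and 717.4 CPM in MK506, against 456.9 CPM in sham MK504, 441.3 CPM in MK501 and 580.3 CPM in MK508. The groups did not overlap. The means were 699.4 ± 89.96 CPM in ischemia and 492.8 ± 76.13 CPM in sham (SD, n = 3 each), a log2 fold change of 0.51 (95% interval 0.097 to 0.92, edgeR adjusted p 0.2516, DESeq2 adjusted p 0.05101).

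GJB6, the gene of the other astrocyte connexin, connexin 30, had 51.35 CPM in ischemic MK503, 35.15 CPM in MK507 and 43.23 CPM in MK506, against 43.17 CPM in sham MK504, 46.95 CPM in MK501 and 46.9 CPM in MK508. The sham monkeys lay inside the ischemic range. The means were 43.24 ± 8.099 CPM in ischemia and 45.67 ± 2.166 CPM in sham (SD, n = 3 each), a log2 fold change of -0.096 with an interval of -0.50 to 0.31 (edgeR adjusted p 0.7824). It was the only tested endfoot gene with a negative estimate. The sign turned without MK507 (0.066) or without its partner MK501 (0.088), settings that both remove that pair from the estimate.

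DAG1, which links the dystrophin complex to laminin and agrin in the basal lamina, had 95.28 CPM in ischemic MK503, 95.78 CPM in MK507 and 107.5 CPM in MK506, against 84.34 CPM in sham MK504, 87.8 CPM in MK501 and 77.69 CPM in MK508. The groups did not overlap, but the difference was small, with means of 99.52 ± 6.913 CPM in ischemia and 83.28 ± 5.138 CPM in sham (SD, n = 3 each). The log2 fold change was 0.26 (95% interval -0.046 to 0.56, edgeR adjusted p 0.3478). Of the variance of DAG1 over the libraries 49.8% lay between the conditions and 0.82% between the pairs, where the mean over all genes was 6.51% and 52.3%.

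The fit depends on the pairing of monkeys, which comes from column numbers of the study's table. Without the replicate block 0 of the 8 genes were higher at an unadjusted p under 0.05 (0.633% of all genes), and with pairs 2 and 3 exchanged 3 were (AQP1, HEPACAM and KCNJ10, with 4% of all genes). Because the pair stays in the fit, leaving out 1 monkey also takes its partner out of the estimate. Each such setting in effect removes a pair, and the 2 settings of a pair are nearly the same fit. Of the 5, 4 passed the unadjusted threshold without MK503 or without MK504 (AQP1 being lost), where 11.8% and 12.1% of all genes were higher. Without MK507 or MK501, 2 did (AQP1 and KCNJ10, with 3.95% and 4.27% of all genes), and without MK506 or MK508, 2 did (HEPACAM and KCNJ10, with 6.36% and 6.41%). With 3 monkeys against 3, a permutation test of a single gene that ignores the pairs cannot give a two-sided p below 0.1. Exchange within the 3 pairs allows fewer arrangements, so its lowest p is higher still.

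The fragments of a monkey differed widely for most of these genes. The labels do not say that A1, A2 and A3 mark the same site in each monkey, so a comparison by fragment number need not be one by position. Across the 9 libraries of a group AQP4 ran between 443.4 and 1982 CPM (median 1069) in ischemia and between 504.6 and 957.6 CPM (median 732.6) in sham. KCNJ10 ran between 113.6 and 343.5 CPM (median 208.6) in ischemia and between 67.01 and 229.5 CPM (median 133.1) in sham. GJA1 ran between 318.5 and 1068 CPM (median 753.9) in ischemia and between 342.7 and 719.6 CPM (median 444.6) in sham. Between the highest and the lowest fragment of a monkey AQP1 differed by up to 4.932-fold (median 4.582-fold over the 6 monkeys), whereas DAG1 differed by 1.085- to 1.266-fold.

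On the log2 scale A3 minus A1 was estimated at -0.97 for AQP1, -0.66 for GJA1, -0.61 for AQP4 and -0.60 for HEPACAM. It was -0.54 for MLC1, -0.51 for KCNJ10, -0.046 for DAG1 and 0.21 for GJB6. The spread of this estimate over all genes is not given here. No gene passed the edgeR test over fragments after adjustment (0% of 16353 genes, and 0 of the 8 endfoot genes, adjusted p 0.4107 to 0.8657). At an unadjusted p under 0.05, 1 of the 8 did (AQP4), against 11.6% of all genes.

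**Figure D3:**
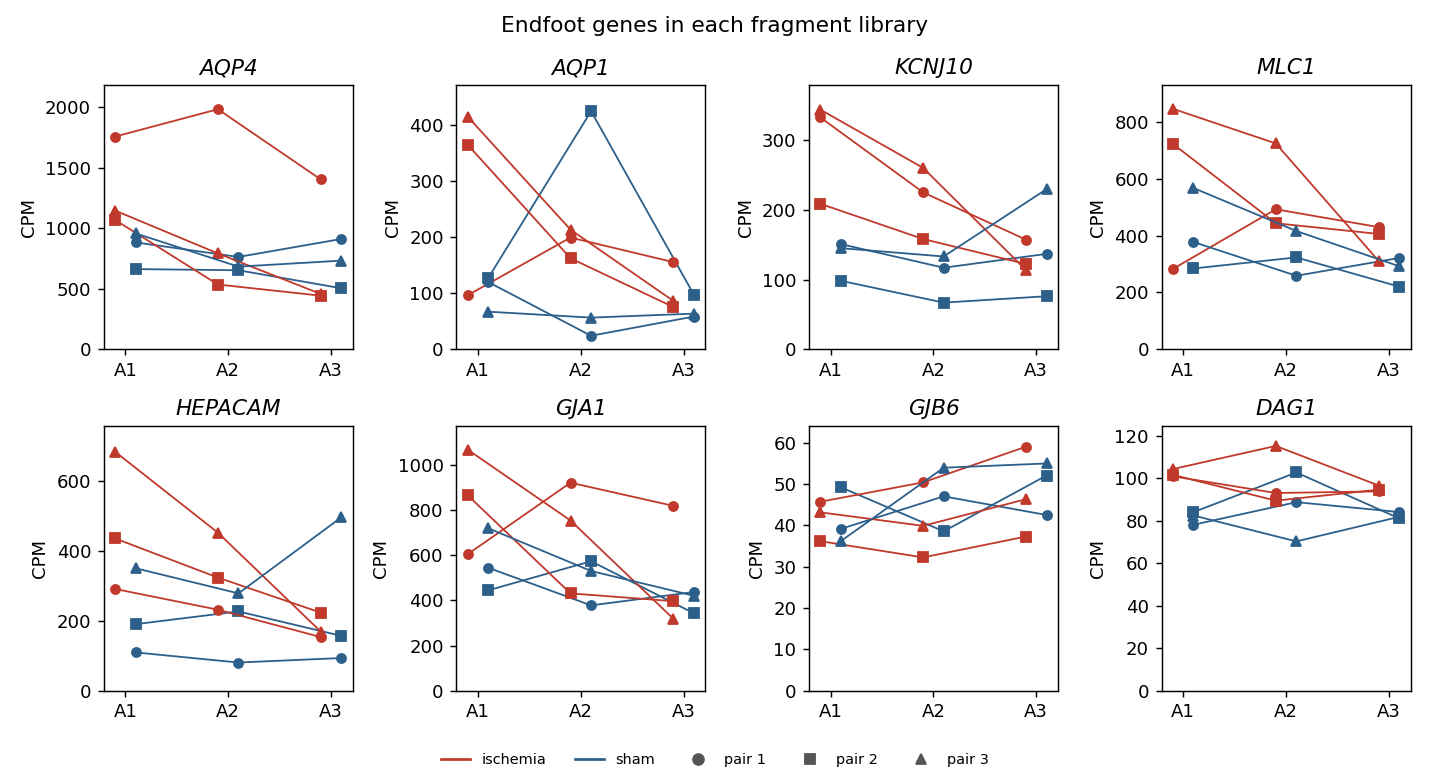
CPM (y axis, from 0) of the 8 tested genes in the A1, A2 and A3 fragments (x axis) of each monkey; lines join the fragments of a monkey, red for ischemia and blue for sham, and symbols mark the pairs. The sham peak of AQP1 is A2 of MK501 (424.2 CPM), and in A3 KCNJ10 and HEPACAM of sham MK508 were above ischemic MK506.

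With fragments matched by their number alone, KCNJ10 and HEPACAM were higher in the ischemic monkey in all 3 pairs in A1 and in A2, but not in A3. In pairs 1, 2 and 3, KCNJ10 had log2 ratios of 1.14, 1.09 and 1.24 for A1, of 0.94, 1.24 and 0.97 for A2, and of 0.20, 0.68 and -1.02 for A3. For HEPACAM the A3 ratios were 0.72, 0.51 and -1.55. The test of whether the ischemia difference varied between fragments gave an edgeR adjusted p of 0.2999 for KCNJ10 and 0.3507 for HEPACAM. It was passed by 0% of genes after adjustment, and by 10% of all genes and 2 of the 8 endfoot genes (these 2) at an unadjusted p under 0.05. Without the A3 fragments KCNJ10 had a log2 fold change of 1.11 and passed the adjusted threshold (edgeR adjusted p 0.03486), as did 1.64% of all genes tested in that setting.

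Oligodendrocyte markers moved with these 2 genes. Of 10 such markers, 9 were higher in ischemia at an unadjusted p under 0.05 (median of the log2 fold changes 1.58), and their sum was 13360 to 23110 CPM in ischemic and 2809 to 18830 CPM in sham monkeys. In A3 of pair 3 the sum was 4609 CPM in ischemic MK506 and 47350 CPM in sham MK508, and KCNJ10 was at 113.6 and 229.5 CPM and HEPACAM at 169.1 and 496 CPM in those libraries. As a description over the 18 libraries, after subtracting each monkey's mean, r with the log2 sum of these markers was 0.895 for KCNJ10 and 0.841 for HEPACAM. It was 0.555 for AQP4, 0.391 for AQP1, 0.282 for GJA1, 0.198 for DAG1, 0.155 for MLC1 and -0.159 for GJB6. With the astrocyte marker GFAP, r was 0.703 for KCNJ10 and 0.877 for HEPACAM. KCNJ10 is also made by oligodendrocytes. The part of oligodendrocyte RNA in the KCNJ10 and HEPACAM differences was not tested.

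**Figure D4:**
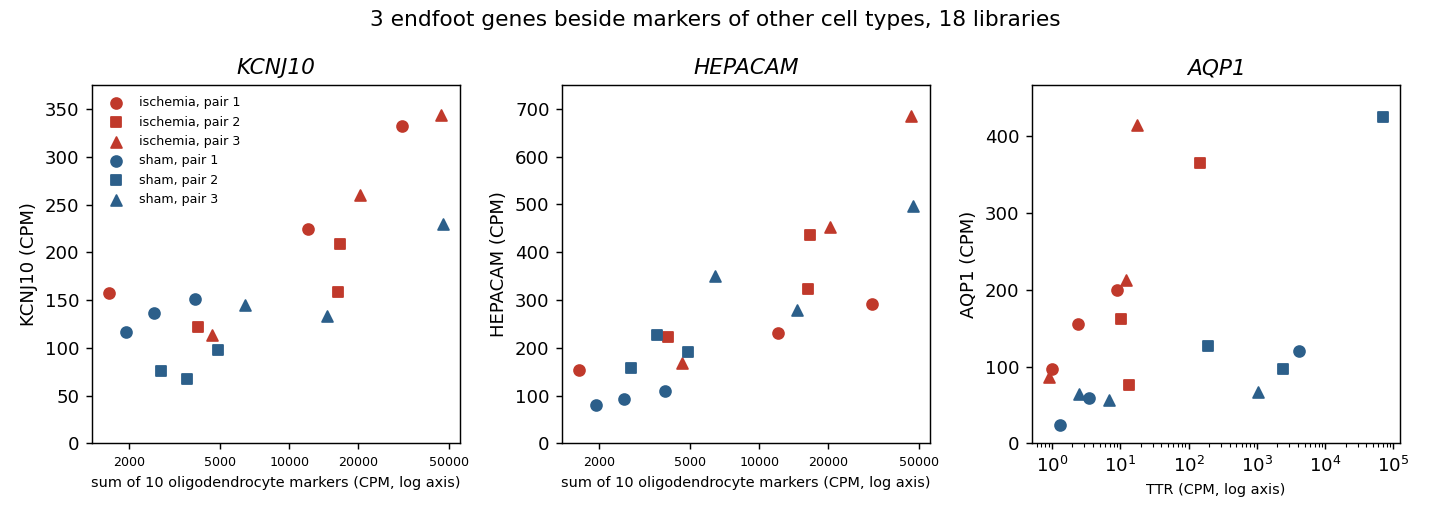
KCNJ10 and HEPACAM (CPM, y axis from 0) against the summed oligodendrocyte markers, and AQP1 against TTR (CPM, log x axes), in the 18 libraries; red, ischemia, blue, sham. KCNJ10 and HEPACAM were high where the oligodendrocyte sum was high, and AQP1 was high both in the library with 71340 CPM of TTR and in 2 with 17.59 and 148.3 CPM.

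Astrocyte markers gave a mixed account. Of 14 markers 3 reached an unadjusted p under 0.05 and a higher level (GFAP, CLU and, named after its value was seen, S100B), and 0 a lower one. The median of their log2 fold changes was 0.17. GFAP, the intermediate filament of reactive astrocytes, averaged 5834 ± 1307 CPM in ischemia and 2594 ± 1237 CPM in sham (SD, n = 3 each, log2 fold change 1.25, edgeR adjusted p 0.2088), while SLC1A2, the main glutamate transporter, averaged 2664 ± 1778 and 3367 ± 3105 CPM (log2 fold change -0.15). Set against the median of the astrocyte markers in the same monkeys, a comparison chosen after the data were seen, KCNJ10 was higher in all 3 pairs (0.65, 0.76 and 0.24) and so was MLC1 (0.17, 0.71 and 0.15). AQP1, HEPACAM, GJA1 and DAG1 were higher in 2 of the 3 pairs and AQP4 and GJB6 in 1. These counts depend on how the reference is taken. The median of the markers' own log2 ratios was 0.28, 0.30 and 0.098 in pairs 1, 2 and 3. Against it KCNJ10, MLC1, HEPACAM and GJA1 were higher in all 3 pairs and DAG1 in 1.

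How the endfoot genes varied together between fragments is given here as correlations over 18 libraries after subtraction of each monkey's mean, in which libraries of a monkey share their animal. MLC1 and GJA1 varied almost as 1 (r = 0.97), and AQP4 went with GJA1 (0.89), HEPACAM (0.82) and MLC1 (0.81). KCNJ10 went with HEPACAM (0.92) and AQP4 (0.72), and less with GJA1 (0.48), AQP1 (0.43) or MLC1 (0.37). KCNJ10 and HEPACAM also went with MALAT1 (0.71 and 0.728), whose part was not tested. GJB6 ran against all 7 others (r -0.46 to -0.16), and DAG1 followed none of them closely (0.29 to 0.48 with the other 6). GFAP had an r of 0.70 to 0.90 with AQP4, AQP1, KCNJ10, MLC1, HEPACAM and GJA1, and of -0.45 with GJB6.

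**Figure D5:**
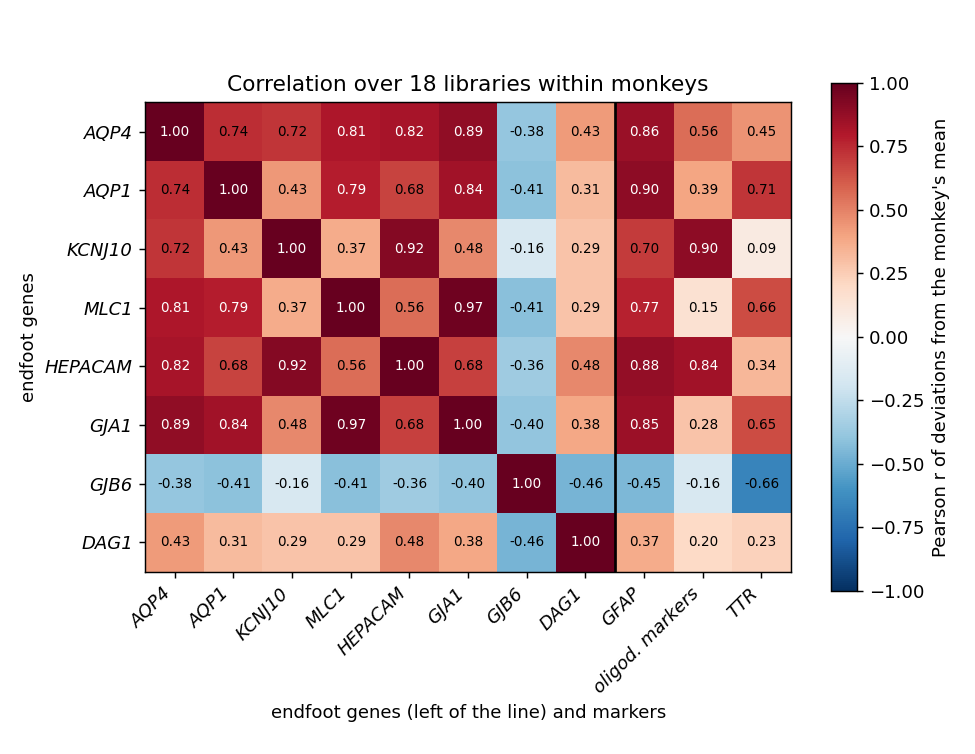
Pearson r between endfoot genes, and with GFAP, the summed oligodendrocyte markers and TTR (right of the line), over 18 libraries after subtraction of each monkey's mean log2 CPM. AQP4, AQP1, MLC1, HEPACAM and GJA1 were correlated at 0.56 to 0.97 with each other, and GJB6 was negative throughout.

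Without subtraction of the monkey means, the 5 genes of 15770 with a mean of at least 1 CPM whose log2 levels were most like AQP4 over the 18 libraries were RNF19A (r = 0.965), SLC7A2 (0.964), DIMT1 (0.96), GNA13 (0.959) and SSFA2 (0.957). Each was higher in the libraries of pair 1, for example SLC7A2 with a mean of 164.2 CPM there and 78.47 CPM in the other 12. Over those 12 libraries alone their r with AQP4 was 0.924 to 0.961. Of the endfoot genes GJA1 was the most like AQP4 (0.766, rank 905), with 0.922 over the 12 libraries. HEPACAM had 0.145 over the 18 libraries and 0.799 over the 12, and was lower in pair 1 (159.9 against 332.2 CPM) where AQP4 was high.

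The partners of the endfoot genes stood closer to the level of all genes. Of 17 members of the dystroglycan complex and its ligands, SSPN (log2 fold change 0.42) alone was higher and DTNB (-0.32) alone lower by the unadjusted threshold, both named after their values were seen. The median of the 17 log2 fold changes was -0.024. DTNA, the dystrobrevin of the astrocyte complex, averaged 423.4 ± 116.2 CPM in ischemia and 372.5 ± 64.29 CPM in sham. DMD, dystrophin, averaged 133.9 ± 92.34 and 149.7 ± 116 CPM, and its relative UTRN 125.7 ± 98.54 and 125.3 ± 99.33 CPM (SD, n = 3 each).

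Of the other aquaporins 7 of 11 were tested and none averaged over 10 CPM in either group. The most abundant were AQP6 (9.832 ± 5.078 CPM in ischemia and 9.674 ± 4.818 CPM in sham), AQP11 (3.599 ± 0.6064 and 3.151 ± 0.2099 CPM) and AQP5 (2.395 ± 1.289 and 2.732 ± 1.316 CPM). By the unadjusted threshold 0 were higher and 2 lower (AQP8 at -1.49 and AQP3 at -0.99, named after their values were seen).

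Of the other connexins 10 were tested, 6 with a positive and 4 with a negative log2 fold change (median 0.26). By the unadjusted threshold 1 was higher and 1 lower. The lower was GJA4, a connexin of vessels, with 1.509 ± 0.4499 CPM in ischemia and 2.764 ± 1.133 CPM in sham (SD, n = 3 each, log2 fold change -0.83, edgeR adjusted p 0.2383). GJC1 averaged 35.92 ± 23.55 CPM in ischemia and 39.07 ± 17.71 CPM in sham (log2 fold change -0.22).

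Of 13 other genes of potassium uptake and volume regulation, 4 passed the unadjusted threshold upward and 3 downward, and their log2 fold changes had a median of 0.17. SLC4A4, the bicarbonate cotransporter, averaged 268.6 ± 161.6 CPM in ischemia and 286.2 ± 247.3 CPM in sham (SD, n = 3 each), and the pump subunit ATP1B2 221.8 ± 87.79 and 218.2 ± 92.16 CPM. Named after their values were seen, the 4 higher were the inward rectifier KCNJ2 (1.04), the potassium channel KCNK10 (0.87), the chloride channel CLCN2 (0.80), which is a partner of HEPACAM, and LRRC8A (0.35), the core subunit of the volume-regulated anion channel. The 3 lower were KCNK1 (-0.27), KCNK2 (-0.77) and the cation channel TRPV4 (-2.51), which is also made in choroid plexus and averaged 0.8061 ± 0.08034 CPM in ischemia and 10.9 ± 15.64 CPM in sham. KCNJ16, a partner subunit of KCNJ10 that is also named after its value was seen, averaged 6.658 ± 5.501 and 7.019 ± 2.891 CPM (log2 fold change -0.30, edgeR adjusted p 0.5884).

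Markers of the other cells were counted in the same way. The unadjusted threshold was passed by 0 of 9 ependymal, 0 of 10 microglial, 0 of 5 red cell and 0 of 5 neutrophil and monocyte markers. It was passed downward by 3 of 10 endothelial (median log2 fold change -0.31) and 5 of 13 neuron markers (median -0.58), and upward by 0 of either. Their part in the endfoot gene differences was not tested.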

How the data were processed

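The deposited values are raw read counts per human RefSeq transcript on the macaque genome, with no normalization by the authors, who used CASAVA (1.8.2), FastQC (0.10.0), TopHat2 (2.0.8) and bedtools (2.16.2) per the labels. Reads of 50 bases from 18 libraries were summed per monkey. Genes were filtered by filterByExpr, scaled by TMM and fitted with pair and condition in edgeR (4.0.16) with the robust quasi-likelihood F test and Benjamini-Hochberg adjustment over all tested genes. DESeq2 (1.42.0) was an alternative, in R (4.3.3). Fragments were tested over libraries with the monkey as a term, and the ischemia by fragment term likewise. Log2 levels used a prior count of 2.

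Pairing follows column numbers of the study's expression table, which best matched the monkeys named. Correlations of deviations from group means were 0.874, 0.767 and 0.65 for the pairs and -0.786 to 0.622 for other combinations.

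The genes and lists were chosen with earlier results of these data known. Named genes were all 9, up to 3 of the most abundant tested genes of each list, and the 5 genes most like AQP4, others being marked in the text. Some genes of the lists are not reported here. P-values of the main fit measure the spread of the differences within 3 pairs of monkeys. Those of the fragment tests measure the spread between fragments within monkeys. The biological coefficient of variation was 0.212, and intervals on reads cover counting error only. The main scripts were tested on simulated data. Alternatives were other scaling, filter and tool, no block, single libraries, summed transcript rows, and each fragment and monkey left out. Genome coordinates and sequences were not used here.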

Additional observations from a re-analysis of the deposited data

Results flagged for a closer look

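Of 18 sets of 9 libraries (9 genes in 2 groups), 1 held a library far from the others. In the sham libraries AQP1 was at 424.2 CPM in the A2 fragment of MK501, and the next highest sham library had 127 CPM. Chance alone would mark about 1 in 20 sets of 9 independent, normally distributed values. That rate need not hold here, since 3 libraries come from each monkey. The same library held 71340 CPM of TTR, and the part of choroid plexus RNA in its AQP1 level was not tested.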

How the results depend on the processing

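Under the 19 alternatives the log2 fold change ran from 0.14 to 0.64 for AQP4, 0.652 to 1.548 for AQP1, 0.58 to 1.11 for KCNJ10, 0.41 to 0.77 for MLC1, 0.52 to 1.07 for HEPACAM, 0.37 to 0.61 for GJA1 and 0.15 to 0.34 for DAG1. AQP1, KCNJ10, MLC1, HEPACAM, GJA1, AQP4 and DAG1 kept a positive sign in all 19 and GJB6 its negative sign in 17, with a range of -0.27 to 0.088 over the monkeys left out (0.066 without ischemic MK507 and 0.088 without sham MK501). Since the pair stays in the fit, leaving out either monkey of a pair removes that pair from the estimate. The 2 settings of a pair are thus nearly the same fit and not separate checks. The count of endfoot genes higher at an unadjusted p under 0.05 was 5. It was 0 without the replicate block (0.633% of all genes then), 2 without the A1 fragments (KCNJ10 and MLC1, 2.49%) and, with pairs 2 and 3 exchanged in the block, a setting added after the data were seen, 3 (4%). With 1 monkey left out it ran from 2 to 4, with 2 without MK507 or MK501 (AQP1 and KCNJ10) and 2 without MK506 or MK508 (HEPACAM and KCNJ10). Without the 3 libraries rich in POLE2, also chosen after the data were seen, it was 4 (9.17% of all genes), with AQP1 (0.69) and MLC1 lost and DAG1 gained. Without sham A2 of MK501, likewise chosen after the data were seen, it was 5 (9.55%). With libraries scaled to equal totals AQP1 was lost (4, with 8.02% of all genes). The count past the adjusted threshold, 0, was 4 with DESeq2 (6.2% of the 17522 genes in either direction), 1 (KCNJ10, 5.45%) in a fit of 9 against 9 libraries, which treats fragments of a monkey as separate and so gives p-values that are too small, and 1 (KCNJ10, 1.64%) without A3. No alternative gave a call over fragments. Counts are deep for all genes but AQP9, so the 3 monkeys per group set the precision.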
